A study of Mus musculus with 18 samples.

Results

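The genes described here are 38 mouse genes of DNA crosslink repair, nucleotide excision repair, damage tolerance by translesion synthesis and the ATR checkpoint, taken by symbol from a list and read on the liver mRNA arrays of a study of monocrotaline. All 38 have at least 1 probe on the array, 46 probes in all, and 36 of them passed the filter on dim probes among 24808 genes tested. A probe was kept if every array of some group read it well above background, so Fancd2 and Brca1, which did not meet this, are described with no test.

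The study treated male C57BL/6 mice, 6 weeks old, with saline (control) or with 1 oral dose of monocrotaline, at 270 mg/kg (MCT 270) or 330 mg/kg (MCT 330). All mice were fasted for 12 h before dosing, 8 mice were assigned to each group, and livers were taken 48 h after the dose. RNA of whole liver from 3 replicates per group was hybridised to 9 1-colour Agilent arrays, and 9 miRNA arrays of the same study were not used here. Monocrotaline is a plant pyrrolizidine alkaloid, and the reactive pyrroles made from it in the liver bind DNA and can join its strands.

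An interstrand crosslink ties both strands of the helix together and blocks replication and transcription. In the Fanconi pathway a core complex of FANC proteins attaches ubiquitin to the FANCD2-FANCI clamp, nucleases then cut around the lesion, translesion polymerases fill across it and homologous recombination restores the broken strand. Nucleotide excision repair recognises bulky adducts, opens the helix, cuts on either side and removes the damaged stretch. RPA coats the exposed single strand and recruits ATR, the kinase that slows the cell cycle through CHK1.

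At MCT 330, 5 of the 36 tested genes were higher than in control and 4 were lower at an adjusted p under 0.05. The higher genes were Ercc1, Ercc3 and Ercc5 of excision repair, the translesion scaffold Rev1 and the RPA subunit Rpa2. The lower genes were the nuclease gene Fan1, Xpa of excision repair, the ubiquitin ligase gene Rad18 and Palb2, the partner of Brca2. Over all genes tested in the same comparison, 9.5% were higher and 23.8% were lower (33.3% in either direction). At MCT 270 none of the 36 passed, and 0% of all genes did.

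Several facts of the arrays bear on every value. Replicates 2 and 3 of each group differed by less than the scatter among repeat spots on 1 array, with a ratio of the robust SDs between 0.46 and 0.71, and the deviations of their repeated spots correlated at 0.73 to 0.92. The 3 MCT 330 arrays also differed by less than that noise on the robust SD (ratios of 0.95 and 0.98 for replicate 1 against the others) but by more on the plain SD (1.34 and 1.42). Other pairs within a group had ratios of 2.72 to 3.69. Near-identical arrays were averaged and counted once, so that control and MCT 270 have 2 samples each and MCT 330 has 1. Thus the spread within MCT 330 was not measured and the p-values rest on the spread within the other groups. With MCT 330 replicate 1 as a sample of its own, 14 of the 36 genes were higher and 9 lower at MCT 330 against control, while calls over all genes rose too, to 56.4%. Without MCT 270 replicate 1, which leaves 1 sample in that group too, 0 were higher and 1 was lower, with 14.2% of all genes called. The MCT 330 arrays were scanned in sessions of their own, so scan and group cannot be told apart. Between 62.97% and 80.25% of probes were well above background on an array.

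A level is given below as log2 signal relative to the 75th percentile of the same array, and a difference as a log2 fold change with the SE of the fit, where 1 is a 2-fold change. The median log2 fold change of all genes at MCT 330 against control was -0.25, and that of the 36 repair genes was 0.22, a gap of 0.47. Without control replicate 1 the median of the repair genes was 0.01 and the gap 0.30. With quantile normalization the gap was 0.28, and with normexp background correction and quantile normalization it was 0.25. When each array was centred on the median of the genes tested instead, 11 of the repair genes were higher and 2 lower, against 3660 higher and 3937 lower of all genes.

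**Figure D1:**
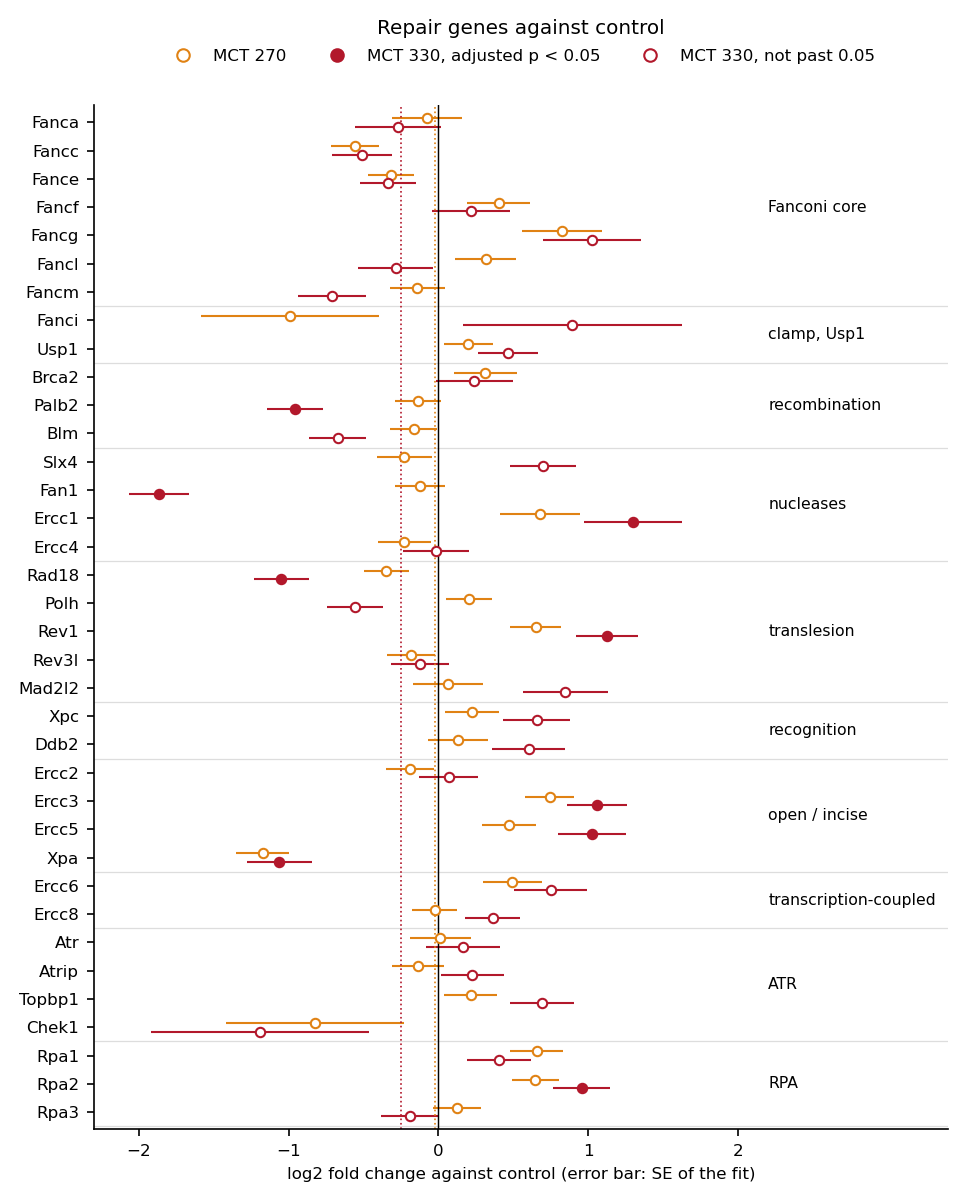
Log2 fold change against control of the 36 tested repair genes, grouped by role, at MCT 270 (orange) and MCT 330 (red), with the SE of the fit as error bars. Filled points passed an adjusted p of 0.05 and dotted lines mark the median of all 24808 genes in each comparison: the 9 filled points are all at MCT 330.

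The Fanconi core complex was not called in either direction. None of its 7 genes (Fanca, Fancc, Fance, Fancf, Fancg, Fancl and Fancm) passed the test at either dose (at an unadjusted p under 0.05 in limma, 1 was higher and 1 lower at each dose). At that threshold 14.6% of all genes were higher and 32.5% lower at MCT 330 (47.1% in either direction). Their log2 fold changes at MCT 330 ran from -0.71 for Fancm, the translocase that finds the stalled fork, to 1.02 for Fancg, with a median of -0.29. Fancg was dim: its probe was well above background on 1 of 3 control arrays and on all arrays of both doses. Its levels were -5.12 and -5.19 in control, -3.99 and -4.67 at MCT 270 and -4.13 at MCT 330 (adjusted p = 0.0707 at MCT 330). Both dosed groups lay above the control samples for Fancg, which passed the filter through those groups alone, so this pattern is tied to that filter. All samples lay above control in 25.4% of all genes at MCT 270 and in 32.2% at MCT 330.

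Fance needs a reservation, because 1 of its MCT 330 spots failed to match the others. The probe read -8.15 on replicate 1 and 0.25 and 0.21 on replicates 2 and 3, and the replicate 1 spot was left out. Without that spot Fance differed from control by -0.33 ± 0.19 (adjusted p = 0.223). With the spot kept it would be called lower, at -3.13 (adjusted p = 0.00878). The second Fance probe, for another transcript and well above background on all 9 arrays, differed by -0.01. Since replicates 2 and 3 share the noise of their spots, they do not outvote replicate 1, and which reading is right was not tested.

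Of the clamp and its regulator, Usp1 and Fanci were tested and neither passed. Usp1, which removes ubiquitin from the clamp, lay at 1.201 and 1.41 in control, 1.49 and 1.52 at MCT 270 and 1.77 at MCT 330 (0.46 ± 0.20 against control, adjusted p = 0.14). The order followed the dose without overlap. Fanci, a clamp subunit, scattered within groups: it read -4.91 and -3.15 in the 2 control samples, -5.09 and -4.96 at MCT 270 and -3.14 at MCT 330. Its MCT 330 replicate 1 spot, left out, stood at -5.04, so the arrays of that group also disagree and no direction is given for Fanci. Fancd2, the other clamp subunit, was well above background on 1 MCT 270 array alone, with levels of -8.03 to -6.05 over the 9 arrays.

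Among the recombination genes Palb2 fell. It bridges Brca1 and Brca2 on broken DNA. By the brighter of its 2 probes it stood at -3.41 and -3.46 in control, -3.60 and -3.53 at MCT 270 and -4.39 at MCT 330. The MCT 330 level lay below every other sample, a difference of -0.96 ± 0.19 from control (adjusted p = 0.0225) and of -0.82 ± 0.19 from MCT 270 (adjusted p = 0.0422). The second Palb2 probe, also well above background on all arrays, differed by 0.24 from control, so the fall was seen by 1 of 2 probes. The call against control was lost with quantile normalization (-0.52, adjusted p = 0.0797) and with normexp and quantile normalization (-0.19, adjusted p = 0.193). Blm, the helicase that dissolves recombination intermediates, was at -1.95 and -1.87 in control, -2.03 and -2.12 at MCT 270 and -2.58 at MCT 330 (-0.67 ± 0.19, adjusted p = 0.0531). Brca2, a mediator of homologous recombination, differed by 0.24 ± 0.26 at MCT 330.

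Brca1 was not well above background on any control or MCT 270 array. Its MCT 330 arrays read -6.06, -3.92 and -3.72 for replicates 1, 2 and 3, of which replicates 2 and 3 were well above background. No fold is given, because the arrays of that group disagree.

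The nuclease genes moved in opposite directions. Fan1, a nuclease recruited to the ubiquitinated clamp, showed the largest difference of the 36 against control: -3.96 and -4.06 in control, -4.04 and -4.22 at MCT 270, and -5.87 at MCT 330, where the 3 arrays read -5.73, -5.90 and -6.00. Control and MCT 270 overlapped, and MCT 330 lay far below both, by -1.86 ± 0.20 against control (adjusted p = 0.00919) and -1.74 ± 0.20 against MCT 270 (adjusted p = 0.021). With normexp background correction and quantile normalization these shrank to -0.39 (adjusted p = 0.0518) and -0.28 (adjusted p = 0.131). The second Fan1 probe was not well above background on any control or MCT 330 array and gives no fold. Ercc1, the subunit that positions the ERCC1-XPF nuclease in both crosslink and excision repair, rose from -3.14 and -3.60 in control to -2.07 at MCT 330, with -2.95 and -2.44 at MCT 270. The groups did not overlap and followed the dose, with a difference of 1.30 ± 0.33 at MCT 330 (adjusted p = 0.0409). Its catalytic partner Ercc4 did not pass, at -0.02 ± 0.22.

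Slx4, a scaffold for the ERCC1-XPF nuclease, was the 1 repair gene called higher at MCT 330 than at MCT 270, where 5.01% of all genes were higher, 16.8% lower and 21.8% either. It stood at -0.93 and -0.63 in control, -1.05 and -0.96 at MCT 270 and -0.08 at MCT 330. The MCT 330 level was above all others, by 0.93 ± 0.22 over MCT 270 (adjusted p = 0.0472). The call was lost without control replicate 2, MCT 270 replicate 1 or 2, or MCT 330 replicate 1 or 3 (adjusted p from 0.0502 to 0.217). Against control the difference was 0.70 ± 0.22 (adjusted p = 0.0696). The genes called lower than at MCT 270 were Fan1 and Palb2.

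**Figure D2:**
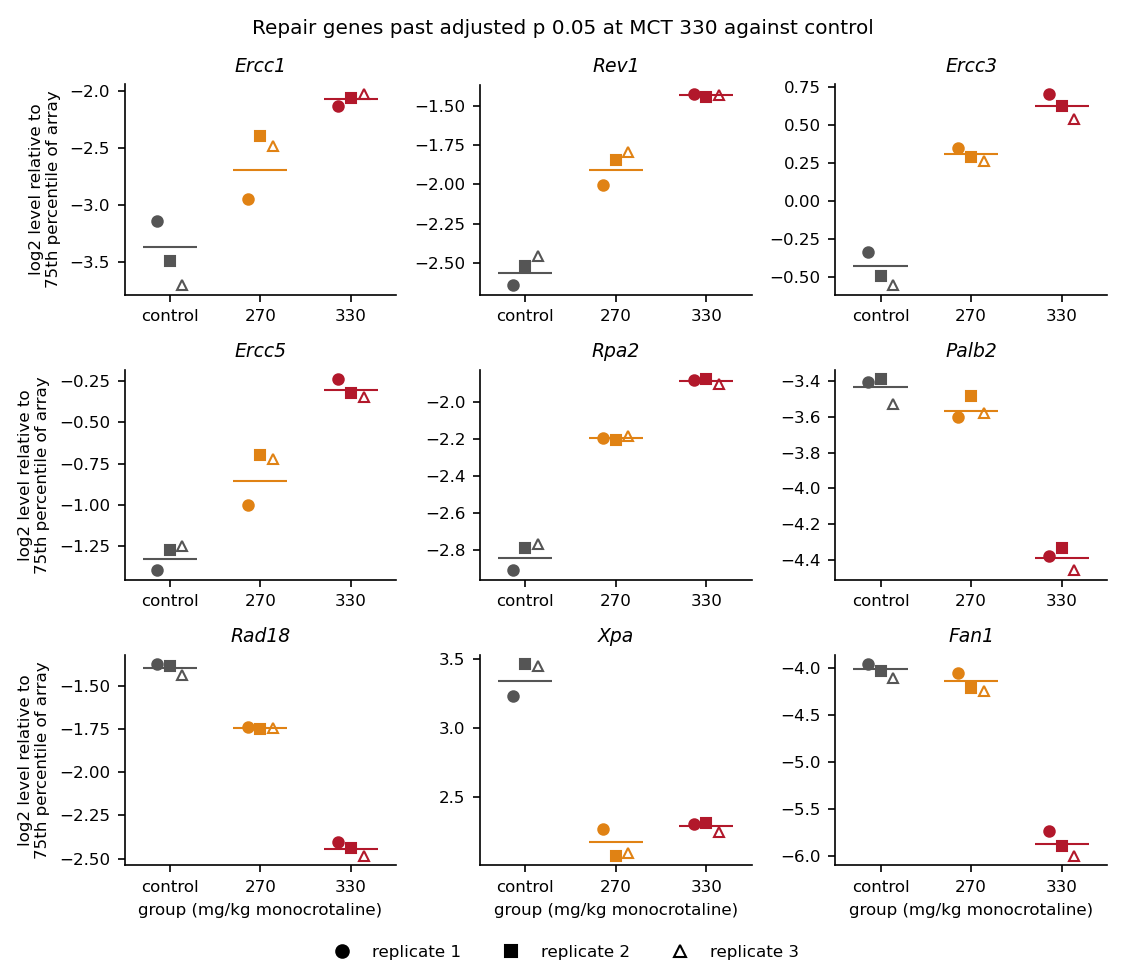
Log2 level, relative to the 75th percentile of the array, on each of the 9 arrays for the 9 repair genes that passed at MCT 330 against control. Lines are group means over samples after near-identical arrays were averaged. Ercc1, Rev1, Ercc3, Ercc5 and Rpa2 step up with dose, Rad18 steps down, Xpa is low at both doses, and Palb2 and Fan1 are low at MCT 330.

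Of the 5 translesion genes, Rev1 rose, Rad18 fell by the probe used, and Polh, Rev3l and Mad2l2 did not pass. Rev1, the deoxycytidyl transferase that recruits the other translesion polymerases, stood at -2.64 and -2.48 in control, -2.003 and -1.82 at MCT 270 and -1.44 at MCT 330. The 3 groups were apart and ordered by dose, with 1.12 ± 0.21 at MCT 330 (adjusted p = 0.0201) and 0.65 ± 0.17 at MCT 270 (adjusted p = 0.164). Mad2l2, a subunit of polymerase zeta, was at 2.48 and 2.77 in control, 2.46 and 2.92 at MCT 270 and 3.48 at MCT 330 (0.85 ± 0.28, adjusted p = 0.0793). Rev3l, the catalytic subunit of that polymerase, differed by -0.12 ± 0.20. Polh, which copies past ultraviolet lesions, was dim, at -5.17 and -5.08 in control and -5.68 at MCT 330 (-0.56 ± 0.19, adjusted p = 0.0794).

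Rad18 attaches ubiquitin to PCNA and so opens the way to translesion synthesis, and its 2 probes disagreed. The probe used, which is the brighter, read -1.38 and -1.41 in control, -1.74 and -1.75 at MCT 270 and -2.44 at MCT 330, a difference of -1.05 ± 0.18 at MCT 330 (adjusted p = 0.0181). The groups did not overlap and fell with dose. The other probe, assigned to a different RefSeq transcript of the gene, was not well above background on any control or MCT 270 array and was well above it on all 3 MCT 330 arrays, at -3.92, -3.96 and -3.90. Its signal was at least 2.73-fold higher at MCT 330 than in control, set against the lowest signal that counts as well above background where the probe was dimmer than that. The 2 probes thus give no single direction for Rad18.

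**Figure D3:**
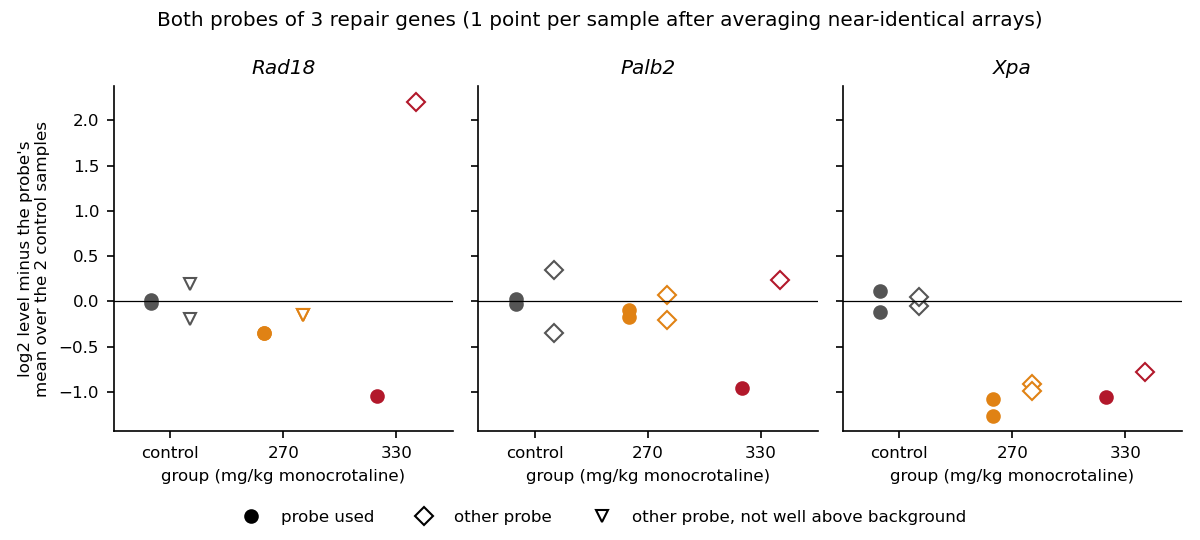
Log2 level of each probe of Rad18, Palb2 and Xpa minus that probe's mean over the 2 control samples, with 1 point per sample after averaging near-identical arrays. The other Rad18 probe is well above background at MCT 330 alone, so its triangles at control and MCT 270 are no measured levels and its height at MCT 330 is no fold. The other Palb2 probe lies 0.24 above, and both Xpa probes are low at both doses.

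Excision repair gave 3 higher genes and 1 lower gene among its 10 members at MCT 330 against control, with Ercc1 and Ercc4 counted here too. Over all genes 9.5% were higher, 23.8% lower and 33.3% either. Ercc3, the XPB translocase of TFIIH that opens DNA, stood at -0.34 and -0.53 in control, 0.35 and 0.27 at MCT 270 and 0.62 at MCT 330. The 3 groups were apart, with 1.06 ± 0.20 at MCT 330 (adjusted p = 0.0214) and 0.74 ± 0.16 at MCT 270 (adjusted p = 0.136). Ercc5, the XPG nuclease that cuts 3' of the lesion, stood at -1.40 and -1.26 in control, -1.002 and -0.71 at MCT 270 and -0.30 at MCT 330. It was again ordered by dose with no overlap, at 1.02 ± 0.22 for MCT 330 (adjusted p = 0.0291, and 0.0602 without control replicate 1). Ercc2, the XPD helicase of TFIIH, did not pass, at 0.07 ± 0.20.

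Xpa, which verifies the lesion and holds the incision complex, was the exception in this group. It stood at 3.23 and 3.46 in control, 2.26 and 2.08 at MCT 270 and 2.28 at MCT 330. Both doses lay below control, and MCT 330 lay just above both MCT 270 samples. The difference was -1.06 ± 0.22 at MCT 330 (adjusted p = 0.0251) and -1.17 ± 0.18 at MCT 270, where it did not pass (adjusted p = 0.0966). The second Xpa probe, well above background on all 9 arrays, differed by -0.78 at MCT 330 and -0.95 at MCT 270. Centred on the median of genes, the probe used gave -0.77 at MCT 330 (adjusted p = 0.0641).

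The damage sensors did not pass. Xpc, which finds distorted helix, stood at -0.53 and -0.82 in control, -0.39 and -0.51 at MCT 270 and -0.02 at MCT 330 (0.65 ± 0.22, adjusted p = 0.0815). Ddb2, its partner for ultraviolet lesions, differed by 0.60 ± 0.24 (adjusted p = 0.12). Of the transcription-coupled factors, Ercc6 (CSB) differed by 0.75 ± 0.24 (adjusted p = 0.0735) and Ercc8 (CSA) by 0.36 ± 0.19 (adjusted p = 0.193). All 10 excision repair members were higher in the averaged MCT 330 sample than in both MCT 270 samples, which held for 31.2% of all genes. None of the 10 passed the test, with differences from 0.11 to 0.62. Single arrays did not all follow. Ercc6 read -3.35 on MCT 330 replicate 1, below both MCT 270 samples (-2.97 and -3.16), and -2.54 and -2.53 on replicates 2 and 3. Xpa read 2.24 on MCT 330 replicate 3 and 2.26 on MCT 270 replicate 1.

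None of the 4 ATR genes passed (at an unadjusted p under 0.05 in limma, 1 was higher and 0 lower at MCT 330, where 14.6% and 32.5% of all genes were). Topbp1, the activator of ATR, stood at -1.12 and -1.04 in control, -0.9997 and -0.73 at MCT 270 and -0.39 at MCT 330 (0.69 ± 0.21, adjusted p = 0.0655). Atr and its partner Atrip differed by 0.16 ± 0.25 and 0.23 ± 0.21. Chek1, the kinase downstream of ATR, varied so much within groups, at -1.30 and -1.69 in control, -1.46 and -3.17 at MCT 270 and -2.68 at MCT 330, that its difference of -1.19 carried an SE of 0.73.

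Of the RPA subunits, Rpa2, the one phosphorylated during replication stress, rose. Its levels were -2.91 and -2.78 in control, -2.20 in both MCT 270 samples and -1.89 at MCT 330. The groups were apart, with 0.96 ± 0.19 at MCT 330 (adjusted p = 0.0238) and 0.65 ± 0.16 at MCT 270 (adjusted p = 0.148). Rpa1, the large subunit that binds DNA, differed by 0.41 ± 0.21 and Rpa3 by -0.19 ± 0.20 at MCT 330, and neither passed.

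At MCT 270 against control no gene of the array passed, with the lowest adjusted p at 0.0596. At an unadjusted p under 0.05, 5 repair genes were higher (9.81% of all genes) and 2 lower (8.78% of all genes), with 18.6% of all genes in either direction. The median of the 36 was 0.04 and that of all genes -0.02. With control, MCT 270 and MCT 330 in strict order in every sample, 9 of 36 repair genes (25%) rose with dose and 4 (11.1%) fell, against 10% and 16.9% of all genes tested.

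To set genes that rose beside genes that fell, the promoter is printed for 5 of the genes that passed and have a RefSeq window (build GRCm38.p6, 250 bases before to 50 after the annotated start, 5' to 3' on the gene's strand): 3 that rose and 2 that fell, chosen after their values were seen. Capitals mark a CCAAT box (CCAAT or ATTGG) or a GC box (GGGCGG or CCGCCC). Rev1 lies at chr1:38129617-38129916, minus strand, Rpa2 at chr4:132768110-132768409, plus strand, Ercc1 at chr7:19344821-19345120, plus strand, Xpa at chr4:46196262-46196561, minus strand and Fan1 at chr7:64374007-64374306, minus strand.
Rev1: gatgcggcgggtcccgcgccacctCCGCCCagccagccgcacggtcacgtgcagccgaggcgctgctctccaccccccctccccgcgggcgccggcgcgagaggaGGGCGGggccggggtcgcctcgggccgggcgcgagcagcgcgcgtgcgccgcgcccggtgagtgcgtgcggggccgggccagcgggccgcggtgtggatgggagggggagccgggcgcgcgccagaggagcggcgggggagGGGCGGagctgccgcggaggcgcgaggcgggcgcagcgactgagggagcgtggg
Rpa2: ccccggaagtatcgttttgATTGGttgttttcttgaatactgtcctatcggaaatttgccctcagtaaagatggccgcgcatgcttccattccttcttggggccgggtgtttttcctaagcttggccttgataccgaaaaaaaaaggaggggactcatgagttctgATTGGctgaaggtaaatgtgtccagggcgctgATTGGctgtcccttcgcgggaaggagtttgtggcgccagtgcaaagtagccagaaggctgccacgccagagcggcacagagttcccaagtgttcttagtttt
Ercc1: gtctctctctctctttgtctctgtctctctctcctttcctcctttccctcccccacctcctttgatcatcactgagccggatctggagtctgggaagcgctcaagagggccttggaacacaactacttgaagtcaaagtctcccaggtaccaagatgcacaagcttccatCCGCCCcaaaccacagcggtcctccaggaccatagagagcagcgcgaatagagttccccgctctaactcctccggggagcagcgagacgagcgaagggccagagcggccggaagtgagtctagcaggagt
Xpa: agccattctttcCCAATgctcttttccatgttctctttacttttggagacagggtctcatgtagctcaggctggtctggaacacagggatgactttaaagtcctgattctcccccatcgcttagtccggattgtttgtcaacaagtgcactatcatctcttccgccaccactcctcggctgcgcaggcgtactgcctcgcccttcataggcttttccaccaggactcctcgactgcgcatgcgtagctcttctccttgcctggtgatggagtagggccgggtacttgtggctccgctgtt
Fan1: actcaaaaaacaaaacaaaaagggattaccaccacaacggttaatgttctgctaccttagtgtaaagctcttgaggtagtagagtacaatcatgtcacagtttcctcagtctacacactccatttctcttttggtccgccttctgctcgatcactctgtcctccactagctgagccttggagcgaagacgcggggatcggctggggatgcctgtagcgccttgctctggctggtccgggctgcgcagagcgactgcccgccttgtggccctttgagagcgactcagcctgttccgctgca
Rev1 holds 3 GC boxes, Rpa2 holds 3 CCAAT boxes, Ercc1 holds 1 GC box, Xpa holds 1 CCAAT box and the Fan1 window holds neither motif. Of the genes that passed and are not printed, Ercc5 holds 1 CCAAT box, Palb2 holds 1 of each motif and both Rad18 windows hold neither. Of the 38 genes 32 had a window, 34 windows in all, and Ercc3, Xpc, Ddb2, Fancd2, Rev3l and Usp1 had none. A CCAAT box was in 55.9% of these windows and in 37.4% of all windows of the table, and a GC box in 58.8% and 35.6%. An E2F motif (TTTCCCGC, TTTGGCGC or TTTCGCGC, either strand) was in 8.82% and 1.84%, and a p53 half-site in 5.88% and 8.36%. For the repair genes these shares are 3 and 2 of 34 windows. The E2F windows are those of Brca2, Fancg and Topbp1, and none of these genes passed the test. The windows of the repair genes had a median GC content of 57.7%, against 52.7% over all windows.

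Other genes of the same pathways were read from further lists. Of 98 tested, 17 were higher and 6 lower at MCT 330 against control, with a median of 0.24. All genes together gave 9.5% higher, 23.8% lower and 33.3% either. Among 30 other crosslink repair genes, 5 were higher and 4 lower. Rad51d (-1.49 ± 0.24), Slx1b (-1.42 ± 0.19) and Xrcc3 (-1.24 ± 0.21) fell. Ube2t, which delivers ubiquitin to the clamp, was at least 2.07-fold higher, with 0 of 3 control arrays and all 3 MCT 330 arrays well above background. Ube2t passed the filter on dim probes through MCT 330 alone, where it is highest, so its call is tied to that filter. Among 37 other excision repair genes, 6 were higher and 0 lower (1 lower at an unadjusted p under 0.05), among them the TFIIH genes Gtf2h2 (1.50 ± 0.24) and Cdk7 (1.30 ± 0.25) and the gap-filling genes Pole2 (1.94 ± 0.25) and Rfc3 (1.41 ± 0.28). Pole2 was well above background on 2 of 3 control arrays and on all dosed arrays. It passed the filter through the dosed groups alone, so its call is tied to that filter. Among 17 other checkpoint genes, 5 were higher and 0 lower (0 lower at an unadjusted p too), among them the kinase gene Wee1 (3.08 ± 0.28). Clspn, which carries the signal from ATR to CHK1, was at least 2.42-fold higher, with 0 of 3 control arrays and all 3 MCT 330 arrays well above background. Clspn too passed the filter through MCT 330 alone, so its call is tied to that filter. Of 14 other damage tolerance genes the polymerase gene Polk rose (2.46 ± 0.20), and Zranb3 fell (-2.36 ± 0.18). Poln was also called lower, but its probe was well above background on 1 of 3 control and 1 of 3 MCT 330 arrays, so no size is given.

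For reference within the same arrays, 5 of 22 base excision and reversal genes were higher and 2 lower. Parp2 (1.27 ± 0.20) and Fen1 (1.12 ± 0.19) were among the former. Mgmt, which removes alkyl groups from guanine, was among the latter (-1.81 ± 0.28). Of 10 end-joining genes 0 were higher and 4 lower (2 higher at an unadjusted p under 0.05), among them Xrcc4 (-1.35 ± 0.20) and Prkdc (-1.02 ± 0.21). Of 8 mismatch repair genes Pms2 was higher (1.11 ± 0.20) and Msh3 lower (-1.13 ± 0.20). Of 30 p53 target genes 18 were higher and 1 lower, and of 22 proliferation genes 6 were higher and 2 lower. Among the higher genes, the p53 target Psrc1 and the proliferation gene Cdc6 were well above background on no control array. Both passed the filter on dim probes through dosed groups alone, so their calls are tied to that filter. The shares over all genes were 9.5% higher and 23.8% lower.

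**Figure D4:**
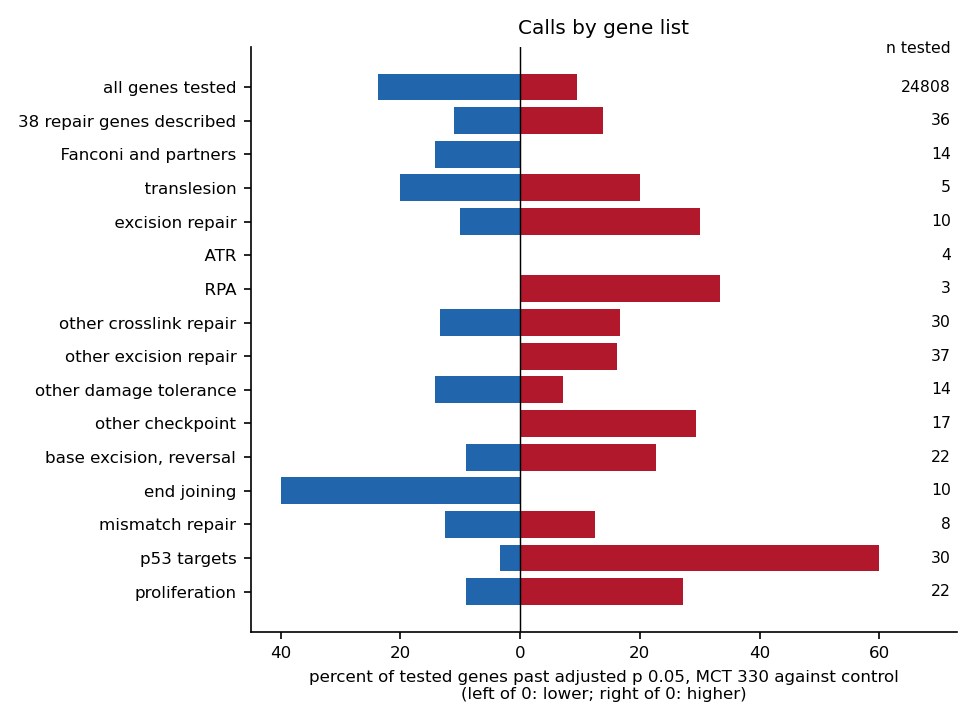
Percent of tested genes past an adjusted p of 0.05 at MCT 330 against control, higher to the right of 0 and lower to the left, for all genes, the 38 repair genes (36 tested) with their subgroups, and other gene lists. The number tested stands at the right: small lists move by large steps, and 1 of 3 RPA genes is the whole RPA bar.

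Cell type markers moved in the same comparison. Of 10 sinusoidal endothelial markers 9 were lower at MCT 330, with summed linear levels of 37.98 to 39.1 in control, 13.96 to 16.7 at MCT 270 and 9.37 at MCT 330. Of 9 neutrophil markers 7 were higher, with sums of 9.23 to 12.1, 8.74 to 9.73 and 41.8. A linear sum follows its brightest markers, such as S100a9 (log2 level of 4.69 at MCT 330). The lymphocyte sum was 19.64 to 24.67 in control and 11.01 at MCT 330, though more of its markers were called higher than lower. Of 8 monocyte markers 6 were higher, of 9 Kupffer cell markers 5 were lower, and of 12 hepatocyte markers 4 were lower. Of 9 stellate cell markers 1 was higher and 4 lower, of 10 lymphocyte markers 3 were higher and 2 lower, and of 6 cholangiocyte markers 1 was higher. Some of the called markers passed the filter on dim probes only through dosed groups, where they are highest. Their calls are tied to that filter. Among them are Il1r2 and Retnlg (neutrophil), Clec4d, Clec4e and Ccr2 (monocyte), Des (stellate cell), Ms4a1 and Ncr1 (lymphocyte) and Krt7 (cholangiocyte). In the same comparison 9.5% of all genes were higher and 23.8% lower. The part of these cell types in the repair gene results was not tested. In whole liver, fewer cells of a type and less RNA per cell cannot be told apart.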

How the data were processed

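The values are 1-colour intensities of 9 Agilent mRNA arrays, deposited by the authors as scanner output. Per the file headers, the software was Feature Extraction 11.0.1.1, which also subtracted the background. The deposited miRNA table was not used. Of 44397 spots, 1377 control spots were left out, and outlier spots were set to missing. The log2 of the processed signal was scaled to each array's 75th percentile and averaged over spots of a probe. Systematic names were matched to symbols through the RefSeq and gene name tables (21464 of 33258 names). A gene is measured by its brightest probe that passed the filter.

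Groups were compared in 1 fit over 3 groups with limma 3.58.1 (R 4.3.3, lmFit and eBayes), two-sided, with Benjamini-Hochberg adjustment over 24808 genes and a threshold of 0.05. The fit was tested on simulated data. Precision is limited by how few arrays there are.

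The members and all lists were chosen with earlier results of these data known. Members past the threshold in any comparison are given in every sample. From each other list of repair or pathway genes, up to 4 of the genes that passed with the largest change were picked. Not all of those picked are named. From the p53, proliferation and cell type lists, genes are named only to show a limit of the filter or of a sum. 2 rules were settled after values had been seen. Arrays were joined where the robust SD of their difference was under that of repeated spots. A first version used the plain SD with a limit of 1.5, and with the plain SD and a limit of 1 MCT 330 replicate 1 would be a sample of its own. A spot of MCT 330 replicate 1 over 1 log2 unit from both other arrays was left out where at least 1 of the 3 arrays was well above background (1018 spots). Of the 3 versions tried, the others left out 173 spots (all 3 arrays well above background) and 1620 (no condition), and the 173-spot version called Fance lower. The labels number separate mice, but near-identical arrays may be technical, so p-values measure the spread between these samples only. The alternatives tried are other scaling, background correction, filters, probe rules, sample rules, spot rules, each array left out and blocks. A description by gene length was planned and not made, because the gene table at hand is of another build than the arrays.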

Additional observations from a re-analysis of the deposited data

Results flagged for a closer look

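In 5 repair genes every MCT 270 sample lay on one side of both control samples and the MCT 330 sample on the other. The share of all genes with this pattern was not counted, so the number is not read as a result about repair genes. Fancl, the ubiquitin ligase of the Fanconi core, was higher at MCT 270 and lower at MCT 330, with MCT 330 minus MCT 270 at -0.60. Polh (-0.76) and Rpa3 (-0.31) did the same. Polh passed the filter on dim probes through MCT 270 alone, where it is highest (well above background on 3 arrays there, on 1 in control and on 2 at MCT 330), so its pattern is tied to that filter. Fanci (1.88) and Slx4 (0.93) were lower at MCT 270 and higher at MCT 330. Of these differences between the doses, the adjusted p was under 0.05 for Slx4 alone (0.0472), and it was 0.15 for Fancl, 0.0502 for Polh, 0.304 for Rpa3 and 0.131 for Fanci. The Fanci value leaves out the MCT 330 replicate 1 spot, which read -5.04 and lies among the MCT 270 values. Even without that spot, Fanci at MCT 330 (-3.14) barely exceeded the higher control sample (-3.15), so no direction is given for it.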

How the results depend on the processing

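The counts of repair genes called depend most on which arrays count as samples, a rule settled after values had been seen. At MCT 330 against control (5 higher, 4 lower), MCT 330 replicate 1 as a sample of its own gave 14 and 9, 9 separate arrays 16 and 13, and these with the scan session as a random block 16 and 14, while 56.4%, 73.5% and 76.4% of all genes were called, against 33.3%. At MCT 330 against MCT 270 (1 and 2) the same 3 settings gave 7 and 7, 15 and 9, and 16 and 9. Of all genes 46.4%, 65.7% and 69.1% were then called, against 21.8%. At MCT 270 against control (0 and 0) these settings gave 3 and 1, 8 and 10, and 8 and 7, with 7.5%, 39.1% and 36.4% of all genes called. Same-numbered arrays of different groups deviated from their group means with correlations of -0.06 to 0.05. This cannot exclude a pairing by number, because near-identical arrays leave few differences between samples to correlate. With a replicate block, the 9 arrays gave 15 and 12, 14 and 9, and 8 and 10 in those 3 comparisons, and the averaged samples 0 and 1 at MCT 330 against MCT 270. The shares of all genes called were 73%, 65.1% and 38.3% for the 9 arrays and 12.3% for the averaged samples. At MCT 330 against control, quantile normalization gave 8 higher and 3 lower genes, and centring 11 and 2. Normexp with quantile normalization gave 10 and 2, no filter on dim probes 0 and 1, and a filter on all 9 arrays 9 and 6. The mean over probes gave 5 and 2. Of all genes 29.8%, 30.6%, 30.9%, 11.6%, 42.2% and 33.2% were called under these settings, in that order. Centring raised the median of the repair genes from 0.22 to 0.51 and that of all genes from -0.25 to 0.04. It shifts all genes of an array alike, so the gap of 0.47 could not change. The gap was 0.28 with quantile normalization and 0.25 with normexp and quantile normalization. At MCT 330 against MCT 270, quantile normalization gave 0 and 1, no filter 0 and 0, and centring 1 and 1. Normexp with quantile normalization gave 1 and 0, and the mean over probes 2 and 2. Here 15.7%, 0%, 17.7%, 16.2% and 21.3% of all genes were called, in that order. At MCT 270 against control, normexp and the filter on all 9 arrays each gave 1 lower gene, with 2.1% and 2.02% of all genes called. The spot rule had 3 versions: leaving out spots only where all 3 arrays were well above background gave 4 lower genes at MCT 330 against MCT 270, and 5 lower against control, since Fance was then called at -3.13. That version called 22.1% and 33.5% of all genes in these comparisons. Rad18 turned to 0.58 (MCT 330 against control) and 0.83 (against MCT 270) with the mean over probes, 1 of which is not well above background in control. Leaving out 1 array at a time gave 0 to 6 higher and 1 to 5 lower genes at MCT 330 against control, 0 to 2 and 0 to 3 at MCT 330 against MCT 270, and 0 throughout at MCT 270, with a median at MCT 330 of 0.01 (without control replicate 1) to 0.23. Fan1 was called under 25 of 26 alternatives, Rev1, Ercc3 and Rpa2 under 24, Ercc1, Ercc5, Xpa and Rad18 under 23, and Palb2 under 20. With normexp and quantile normalization the log2 fold change of Fan1 shrank to -0.39 (adjusted p = 0.0518) and that of Palb2 to -0.19 (adjusted p = 0.193). Slx4 at MCT 330 against MCT 270 was called under 18 of 26. The causes were not tested. Dim probes (Fancg, Polh, Brca1, Fancd2) limit what can be read.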
